A study of Mus musculus with 72 samples.

Results

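Growth hormone reaches the liver in pulses and acts there through the growth hormone receptor, Ghr. The occupied receptor activates the kinase JAK2, which phosphorylates the transcription factors STAT5A and STAT5B, and these carry the signal to the nucleus. STAT5 raises the transcription of Igf1, the main circulating growth factor made by the liver, and of Igfals, the subunit that keeps IGF1 in a stable complex in blood. It also raises Socs2 and Cish, which feed back on cytokine receptor signalling, and lowers Bcl6, a repressor that binds many of the same sites as STAT5. In mice, the timing of growth hormone pulses sets much of the difference between male and female livers, and resistance of the liver to growth hormone is known from fasting and inflammation. The 8 genes described here are Ghr, Stat5a, Stat5b, Igf1, Igfals, Socs2, Cish and Bcl6. They were picked by gene symbol from the 20105 genes of the count table, not by a threshold on their values but with earlier results of these data known, and followed in every group of animals in both kinds of nuclei.

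RNA was measured in liver nuclei of 36 Hep-INTACT mice, which carry CAG-Sun1/sfGFP and Albumin-Cre, so that Cre driven by the albumin promoter places a fluorescent tag on hepatocyte nuclei. From every liver, bead-bound hepatocyte nuclei made up 1 library and whole liver nuclei the other. The tumour cells were of the strain of their host, and livers were taken at zeitgeber time 9 h. C26 cachexia animals were BALB/c mice and 8025 cachexia animals C57BL/6N mice, both collected once over 10% of body weight was lost, and a further C26 group was collected at pre-cachexia. NC26 tumours in BALB/c mice and MC38 tumours in C57BL/6N mice leave weight stable. PBS animals of the same strain and genotype belonged to each of the 4 cohorts, which made 9 groups of 4 animals. All groups, controls included, carried both transgenes. Cre-driven tagging defines hepatocytes only by albumin promoter activity. The sex and the age of the animals are not in the labels used here.

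Libraries of hepatocyte nuclei held 8.49 M to 56.4 M counts (median 26.1 M), and those of whole liver nuclei 12.2 M to 30.3 M (median 20.1 M). The hepatocyte library of C26 PBS animal 1 stood apart. Genes with rRNA-like reads (5 genes) took 7.0% of its counts, against 1.04% to 3.59% in the other libraries of hepatocyte nuclei. It had the highest summed endothelial markers of its group and a Ghr level below those of the other 3 C26 PBS animals. The C26 cachexia effect on Ghr, the pairs of the 8 genes and the counts of male-biased and female-biased genes are given with and without it. Some other results that use it are given only with it, such as the correlations between fractions and the likeness of other genes. In the whole liver library of the same animal the rRNA-like genes took 1.09% of counts, against 5.0% to 7.33% in the other C26 PBS animals. The deviations of both libraries of that animal from their group means correlated at -0.191. Summed levels of 10 hepatocyte markers were 11160 to 28100 CPM (counts scaled to a common library size) in libraries of hepatocyte nuclei, with no marker at 0. All 8 genes passed the filter on low counts in every fit. The fewest reads were 7, for Socs2 and for Cish in hepatocyte nuclei of NC26 tumour animal 4.

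Regions around annotated transcript starts of Cish, Bcl6 and Igfals are printed because they hold the letters TTCNNNGAA. STAT5 is known to bind this palindrome. The sequences are from RefSeq (GRCm38.p6), which gave 13 windows for 7 of the 8 genes. Each window runs from 250 bases before a transcript start to 50 bases after it, and all but the last 20 bases are shown. Capitals mark each match to the 9-letter motif, which reads alike on both strands. The matches do not overlap, and the lines give the strand of the gene from 5′ to 3′.
Cish, chr9:107296409-107296688, plus strand: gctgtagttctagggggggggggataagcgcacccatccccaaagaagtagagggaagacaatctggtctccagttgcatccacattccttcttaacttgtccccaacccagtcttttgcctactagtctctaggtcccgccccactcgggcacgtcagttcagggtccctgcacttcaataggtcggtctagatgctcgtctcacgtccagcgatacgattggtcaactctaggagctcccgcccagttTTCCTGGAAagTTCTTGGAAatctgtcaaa
Bcl6, chr16:23981254-23981533, minus strand: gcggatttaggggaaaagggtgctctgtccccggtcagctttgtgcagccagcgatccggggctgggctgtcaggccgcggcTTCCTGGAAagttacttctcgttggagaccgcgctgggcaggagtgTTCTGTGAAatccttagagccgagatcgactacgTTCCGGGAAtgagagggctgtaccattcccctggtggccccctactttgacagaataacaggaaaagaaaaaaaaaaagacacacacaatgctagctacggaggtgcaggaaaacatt
Igfals, chr17:24877981-24878260, plus strand: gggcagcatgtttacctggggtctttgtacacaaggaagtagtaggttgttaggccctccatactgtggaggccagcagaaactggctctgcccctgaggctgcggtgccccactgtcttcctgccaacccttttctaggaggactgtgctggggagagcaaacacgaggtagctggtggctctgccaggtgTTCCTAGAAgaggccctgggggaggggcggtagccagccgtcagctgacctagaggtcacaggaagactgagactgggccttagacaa
Cish held a pair of matches, at bases 1 and 12 from an annotated start at base 107296659 on. The gene as counted begins at base 107296689, so both matches lie before it. Bcl6 held 3 matches in the window shown, which began 168, 122 and 88 bases before an annotated start at base 23981283. That start and these matches lie inside the gene as counted, whose 5′ end is base 23988612. A second window, with its start at base 23988852, held 1 match. Igfals held 1 match beginning 58 bases before the start shown, at base 24878231, and 1 in another window. The gene as counted begins at base 24878770, and the window with the nearest start, at base 24878747, held 0 matches. In all, 5 of the 13 windows and 3 of the 7 genes held the motif, against 8.3% of 32851 RefSeq windows of 300 bases and 9.55% of 27025 genes. These windows cover few of the places where STAT5 could bind, and a match in letters is not a measurement of binding.

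In PBS livers, transcripts of the receptor were among the most abundant in hepatocyte nuclei. Counts were taken over the whole gene with its introns, and Ghr spans 265.598 kb on chromosome 15 (mm10, 3317755 to 3583352, minus strand). Its mean of 10600 ± 2527 CPM (SD, n = 16 PBS animals) ranked 2 of 20105 genes. Per kilobase of counted length, as RPKM, it ranked 65, at 39.9 ± 9.51 RPKM. Igf1, on chromosome 10 (87859056 to 87937047, plus strand), came next with 17.1 ± 9.36 RPKM and rank 216. The RPKM order then ran through Bcl6 (6.73 ± 5.0), Cish (3.80 ± 3.58), Igfals (2.55 ± 1.17), Stat5b (2.23 ± 0.366), Socs2 (0.957 ± 0.875) and Stat5a (0.815 ± 0.190). The neighbours Bcl6 and Cish, Cish and Igfals, Igfals and Stat5b, and Socs2 and Stat5a differed by less than the larger of their SDs. Stat5a and Stat5b are near copies that lie side by side on chromosome 11 (100859351 to 100885169, plus strand, and 100780731 to 100850585, minus strand). Of the 50-base stretches in their spliced transcripts, 14.7% of those of Stat5a and 11.1% of those of Stat5b also occur in the other gene. Part of their reads from spliced sequence could thus have been split between them. Introns were also counted, over gene spans of 25.819 kb and 69.855 kb, and were not compared, so these shares do not apply to all counted reads. The annotation places opposite-strand genes over Stat5a (Stat3), Igf1 (Igf1os), Cish (Gm17040 and Gm17041) and Bcl6 (Gm37419), and how the counting used strand is not given in the sources used here.

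The level of Ghr varied less between control livers than those of Cish and Socs2. Across the 16 PBS animals Cish ran from 1.16 to 63.6 CPM, a 55-fold range, and Socs2 from 0.514 to 15.8 CPM, a 30.8-fold range. Ghr spanned 5407 to 13980 CPM. Within groups, the coefficient of variation in hepatocyte nuclei averaged 75.5% for Socs2, 66.9% for Cish, 66.1% for Bcl6, 49.3% for Igf1 and 42.0% for Igfals. It was 21% for Ghr, 15.9% for Stat5a and 15.4% for Stat5b. The median of 9076 genes with at least 5 CPM was 15.7%, so both STAT5 genes lay near it, the receptor above it (72.5% of those genes varied less) and the other 5 genes further above.

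Part of the spread in control livers went with strain. In hepatocyte nuclei Socs2 averaged 2.33 ± 2.26 CPM in BALB/c PBS animals and 7.95 ± 4.92 CPM in C57BL/6N PBS animals (SD, n = 8 each), 3.29-fold lower (log2 fold change -1.72, SE 0.57, edgeR adjusted p 0.017). Cish averaged 9.23 ± 9.89 CPM in BALB/c and 30.8 ± 20.0 CPM in C57BL/6N, 3.21-fold lower (log2 -1.68, adjusted p 0.017). Stat5a was higher, at 24.5 ± 4.59 CPM in BALB/c and 17.6 ± 1.93 CPM in C57BL/6N (log2 0.47, adjusted p 0.0036). For all 3 the values of the strains overlapped. Those 3 of 8 genes stand beside 41.2% of all genes called between the strains, so a difference of strain was the common case. The calls held in hepatocyte nuclei when any of the 16 animals was left out, with Socs2 at -2.33 and Cish at -2.43 without C26 PBS animal 4. In whole liver nuclei the same genes were called (background 39.6%; Socs2 -1.28, adjusted p 0.034; Cish -1.47, 0.025; Stat5a 0.35, 0.046). There the calls were lost in 9 of 16 omissions for Socs2, 8 for Cish and 10 for Stat5a. Each strain is represented by the PBS animals of 2 cohorts.

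The receptor fell in both cachexia models. In hepatocyte nuclei, Ghr had 6126, 5539, 4226 and 3712 CPM in C26 cachexia animals, against 5407, 12620, 12410 and 11160 CPM in C26 PBS animals. The cachexia animals lay below 3 of the 4 PBS animals and overlapped them only through PBS animal 1, the library that stands apart. In the 8025 cohort, Ghr had 4415, 6056, 2257 and 4679 CPM in cachexia animals, against 9897, 13880, 8555 and 7488 CPM in PBS animals, with no overlap. The C26 means were 4901 ± 1122 and 10400 ± 3389 CPM (SD, n = 4 each), a 2.12-fold lower level (log2 -1.09, SE 0.26, adjusted p 0.0026). The 8025 means were 4352 ± 1571 and 9955 ± 2797 CPM, a 2.29-fold lower level (log2 -1.19, SE 0.26, adjusted p 0.00075). Without C26 PBS animal 1 the C26 change was -1.3 (adjusted p 0.00029). Leaving out each animal of the comparison in turn gave -1.3 to -0.98 for C26 and -1.40 to -0.98 for 8025, called each time.

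**Figure D1:**
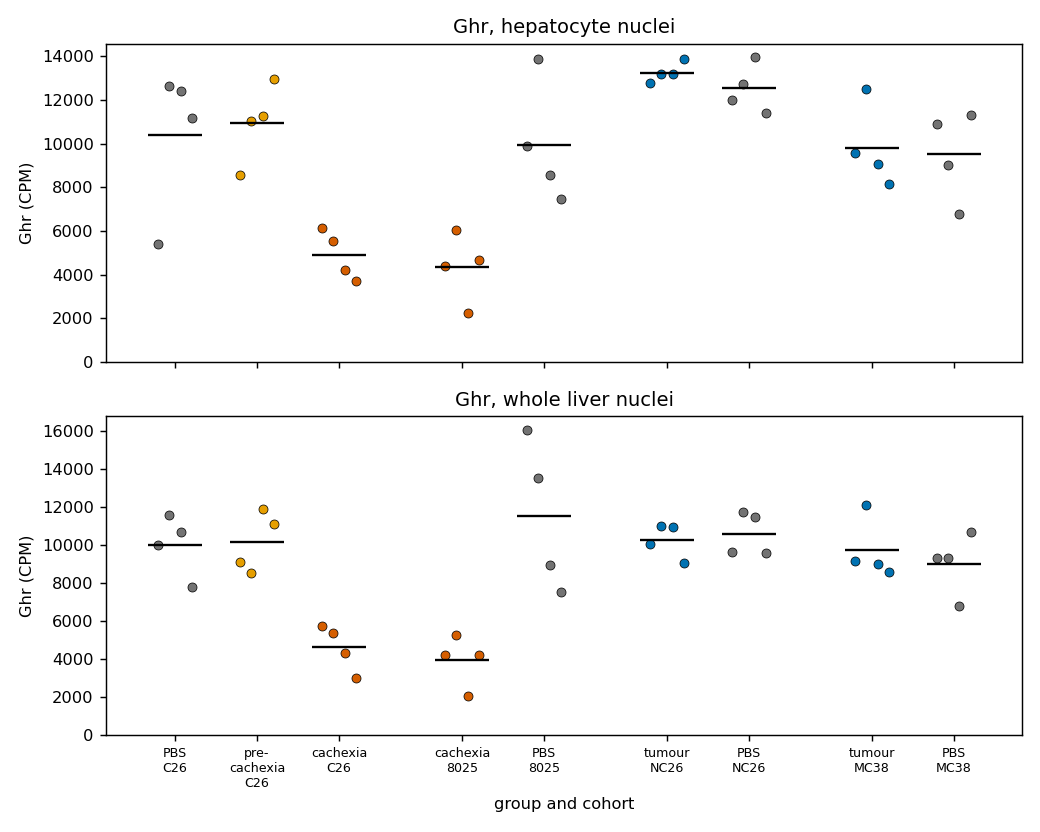
Ghr level (CPM, vertical axis) in hepatocyte nuclei and whole liver nuclei of each of the 36 animals; points are animals and bars are group means of 4. Cachexia animals of C26 (3712 to 6126 CPM in hepatocyte nuclei) and 8025 (2257 to 6056 CPM) lie below the other groups, except for C26 PBS animal 1 at 5407 CPM.

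Whole liver nuclei of the same animals gave the same picture for Ghr. The C26 cachexia animals had 5725, 5376, 4317 and 3006 CPM, against 9975, 11570, 10660 and 7786 CPM in C26 PBS animals. The 8025 cachexia animals had 4214, 5241, 2043 and 4219 CPM, against 16070, 13550, 8915 and 7505 CPM in 8025 PBS animals. Neither pair of groups overlapped, and the C26 PBS animal 1 lay among its group here. The log2 changes were -1.12 (SE 0.24, adjusted p 0.001) for C26 and -1.55 (SE 0.25, adjusted p 9.2e-06) for 8025. In bulk nuclei, fewer cells that express a gene and less RNA per cell cannot be told apart. Summed markers of some other cell types lay higher in cachexia in hepatocyte nuclei and those of others did not. The 11 Kupffer cell and macrophage markers summed to 71.7 to 109.3 CPM in C26 cachexia and 42.7 to 71.3 CPM in C26 PBS animals, and to 109.9 to 145.2 CPM in 8025 cachexia and 41.8 to 49.9 CPM in 8025 PBS animals. The 10 endothelial markers summed to 289.5 to 418.5 CPM in C26 cachexia and 185.2 to 317.8 CPM in C26 PBS animals, with none at 0. In the 8025 cohort they summed to 198.9 to 298.6 CPM in cachexia and 125.4 to 197.4 CPM in PBS animals. The 8 neutrophil and monocyte markers summed to 11.9 to 16.7 CPM in 8025 cachexia and 1.62 to 2.79 CPM in 8025 PBS animals. The 10 stellate cell and fibroblast markers went the other way in the 8025 cohort, with 64.7 to 94.3 CPM (median 84.6) in cachexia and 89.3 to 117.4 CPM (median 97.7) in PBS animals. In the C26 cohort the medians of the cholangiocyte markers were 129.3 CPM in cachexia and 136.4 CPM in PBS animals. Those of the T and NK cell markers were 12.7 CPM in cachexia and 13.0 CPM in PBS animals. In the 8025 cohort the T and NK cell medians were 44.3 CPM in cachexia and 14.8 CPM in PBS animals, with overlap. These sums do not measure the share of nuclei that came from each cell type. The part of these cell types in the fall of Ghr was not tested. In hepatocyte nuclei the 10 hepatocyte markers summed to 17370 to 28100 CPM (median 19250) in C26 cachexia and 15580 to 18080 CPM (median 16740) in C26 PBS animals, and to 13430 to 17300 CPM (median 14920) in 8025 cachexia and 13980 to 15290 CPM (median 14470) in 8025 PBS animals. In whole liver nuclei they summed to 18810 to 27070 CPM (median 24000) in C26 cachexia and 18000 to 24750 CPM (median 19260) in C26 PBS animals, and to 12250 to 16070 CPM (median 12600) in 8025 cachexia and 13890 to 20560 CPM (median 15160) in 8025 PBS animals. The median was thus lower in 8025 cachexia in whole liver nuclei and higher in the other 3 cases, and the ranges overlapped in each case. The part of the share of hepatocyte nuclei in the change of Ghr was not tested.

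The fall of Ghr came with cachexia and not at the pre-cachexia stage. In C26 hepatocyte nuclei, PBS animals averaged 10400 ± 3389 CPM, pre-cachexia animals 10960 ± 1805 CPM and cachexia animals 4901 ± 1122 CPM. The 4 pre-cachexia animals had 8566, 11060, 11290 and 12940 CPM and did not overlap the cachexia animals. Cachexia against pre-cachexia gave -1.16 (SE 0.26, adjusted p 0.0034) in hepatocyte and -1.14 (SE 0.24, adjusted p 0.002) in whole liver nuclei. Ghr was the only 1 of the 8 genes called there, beside 9.09% and 11.6% of all genes. Pre-cachexia against PBS gave 0.08 (SE 0.25, adjusted p 0.89) in hepatocyte nuclei.

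Livers of weight-stable tumour animals showed no called change of Ghr. In hepatocyte nuclei it averaged 13250 ± 443 CPM in NC26 tumour and 12530 ± 1105 CPM in NC26 PBS animals (log2 0.08, SE 0.25, adjusted p 0.93). It averaged 9824 ± 1875 CPM in MC38 tumour and 9507 ± 2053 CPM in MC38 PBS animals (log2 0.05, SE 0.25, adjusted p 1). The 8025 effect minus the MC38 effect, tested as a difference within C57BL/6N, was -1.24 (SE 0.36, adjusted p 0.032) in hepatocyte and -1.66 (SE 0.34, adjusted p 0.0014) in whole liver nuclei, where 7.21% and 13.5% of all genes were called. The hepatocyte call was lost without 8025 cachexia animal 3 (adjusted p 0.067), 8025 PBS animal 2 (0.091), MC38 PBS animals 2 (0.055) and 3 (0.077), or MC38 tumour animal 2 (0.061). The C26 effect minus the NC26 effect was of similar size, -1.17 (SE 0.36, adjusted p 0.086) in hepatocyte and -1.07 (SE 0.34, adjusted p 0.079) in whole liver nuclei, and was not called. None of the 8 genes was called there by edgeR (2 at an unadjusted p under 0.05 in each fraction; background 1.89% and 3.4%), while DESeq2 called Ghr alone in each (adjusted p 0.027 and 0.031). Without C26 PBS animal 1 the hepatocyte value was -1.38 (edgeR adjusted p 0.02). The C26 effect minus the 8025 effect on Ghr was 0.11 (SE 0.36, adjusted p 0.93). Cohorts of cachectic and weight-stable tumours also differ in the range of library numbers, so the cohort and the tumour line cannot be told apart in these differences.

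**Figure D2:**
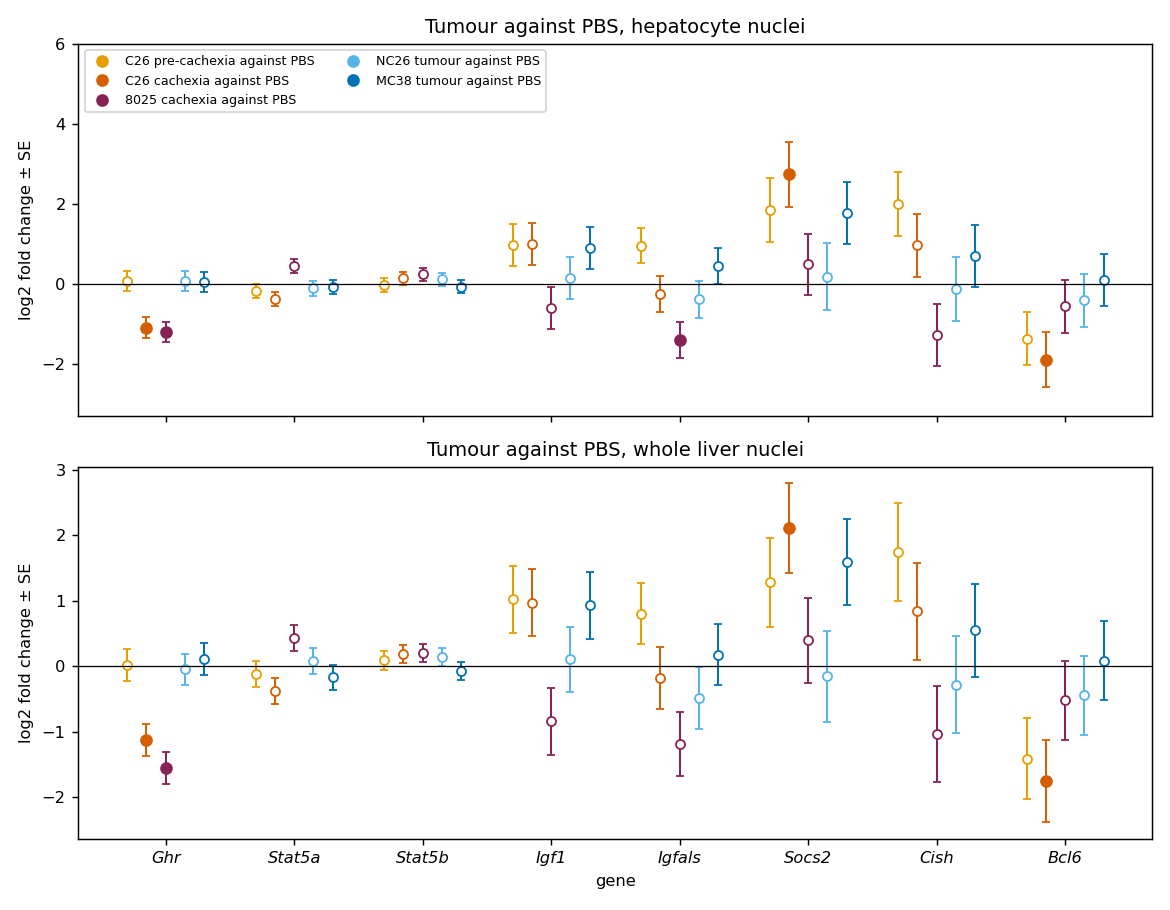
Log2 fold change (vertical axis; bars are ± SE) of the 8 genes in each tumour group against PBS animals of its own cohort, in hepatocyte and whole liver nuclei; filled points have an adjusted p under 0.05. Ghr is filled for both cachexia models in both kinds of nuclei, Socs2 and Bcl6 for C26 cachexia, and Igfals for 8025 cachexia in hepatocyte nuclei.

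Over all 8 genes, C26 cachexia called Ghr, Socs2 and Bcl6 in hepatocyte nuclei (1 higher and 2 lower), beside 22.2% of all genes (12.2% higher and 10% lower). The same 3 were called in whole liver nuclei, beside 22.1%. In 8025 cachexia Ghr and Igfals were called in hepatocyte nuclei, both lower, beside 29.3% of all genes (16.2% higher and 13.1% lower), and Ghr alone in whole liver nuclei, beside 36.6%. The median log2 change of the 8 genes was -0.05 in C26 cachexia and -0.57 in 8025 cachexia, where the medians of all genes were 0.00 and -0.02. The 8025 median was -0.26 without PBS animal 4, and the C26 median ran from -0.15 to 0.09 over the omissions of an animal.

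The transducers Stat5a and Stat5b were not called in either cachexia model with all animals. In hepatocyte nuclei Stat5b, the more abundant form in liver, had 216, 169.5, 170.2 and 186 CPM in C26 cachexia animals, against 201, 144, 168 and 159 CPM in C26 PBS animals (log2 0.14, SE 0.16, adjusted p 0.57). It had 189, 131, 158 and 169 CPM in 8025 cachexia animals, against 146, 143, 98.4 and 159 CPM in 8025 PBS animals (log2 0.24, SE 0.16, adjusted p 0.28). Both pairs of groups overlapped. Stat5a had 23.2, 27.1, 15.3 and 16.0 CPM in C26 cachexia animals, against 30.3, 25, 27.9 and 21.6 CPM in C26 PBS animals (log2 -0.36, SE 0.18, adjusted p 0.14). Without C26 cachexia animal 2 it was called lower, at -0.53 in hepatocyte (adjusted p 0.038) and -0.57 in whole liver nuclei (adjusted p 0.044). In 8025 cachexia animals it had 23.7, 21.2, 19.6 and 27.8 CPM, against 17.6, 18.5, 13.1 and 18.2 CPM in 8025 PBS animals, with no overlap (log2 0.45, SE 0.18, adjusted p 0.06). That difference missed the threshold with TMM scaling and passed it with RLE scaling (0.47, adjusted p 0.041), with DESeq2 (0.47, 0.034) and without 8025 cachexia animal 3 (0.52, 0.049). In whole liver nuclei the groups overlapped, with 14.4 to 22.6 CPM in 8025 cachexia and 12.0 to 15.6 CPM in 8025 PBS animals. The change there was 0.43 (adjusted p 0.087) and was called in 1 of 8 omissions of an animal. In hepatocyte nuclei the C26 effect minus the 8025 effect on Stat5a was -0.81 (SE 0.25, adjusted p 0.11), and by DESeq2 -0.84 (adjusted p 0.042). By edgeR none of the 8 genes was called in that difference (3 at an unadjusted p under 0.05 in hepatocyte and 2 in whole liver nuclei; background 0.957% and 6.57%).

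Of the genes of the circulating IGF1 complex, Igfals fell in 8025 cachexia and Igf1 was called in neither model. Igf1 had 3290, 1165, 2281 and 2362 CPM in hepatocyte nuclei of C26 cachexia animals, against 581, 1745, 372 and 1870 CPM in C26 PBS animals. In the 8025 cohort it had 1682, 839.9, 1215 and 998 CPM in cachexia animals, against 2078, 3017, 1189 and 823 CPM in PBS animals. Both pairs of groups overlapped, with log2 values of 0.99 (SE 0.53, adjusted p 0.18) in C26 and -0.59 (SE 0.52, adjusted p 0.43) in 8025. The difference between these effects was 1.58 (SE 0.74, adjusted p 0.33). In the same C26 cachexia animals in which Ghr was 2.12-fold lower, the mean of Igf1 was 2275 ± 870 CPM, against 1142 ± 775 CPM in C26 PBS animals.

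Igfals, on chromosome 17 (24878770 to 24882008, plus strand), had 6.83, 1.79, 2.26 and 6.39 CPM in hepatocyte nuclei of 8025 cachexia animals, against 13.2, 16.0, 11.1 and 5.15 CPM in 8025 PBS animals. Of the cachexia animals, 2 lay below every PBS animal and 2 overlapped PBS animal 4. The level was 2.63-fold lower (log2 -1.40, SE 0.46, adjusted p 0.021). The call was lost without 8025 cachexia animals 2 (adjusted p 0.076) or 3 (0.081) and without 8025 PBS animals 1 (0.051) or 2 (0.076), and in a fit of that cohort alone (0.059). In whole liver nuclei the value was -1.19 (SE 0.49, adjusted p 0.056). It was called there without cachexia animal 4 (-1.47, adjusted p 0.035) or PBS animals 1 (-1.35, 0.048) or 4 (-1.44, 0.024), and was -0.70 (adjusted p 0.30) without PBS animal 2. In C26 hepatocyte nuclei Igfals had 10.9, 6.1, 5.4 and 9.49 CPM in PBS animals, 11.7, 15.8, 21.1 and 13.5 CPM in pre-cachexia animals and 7.71, 7.58, 8.28 and 3.48 CPM in cachexia animals. In hepatocyte nuclei the pre-cachexia animals lay above all others of the cohort, with no overlap. Neither step passed the threshold there: 0.96 (SE 0.44, adjusted p 0.18) for pre-cachexia against PBS and -1.20 (SE 0.44, adjusted p 0.09) for cachexia against pre-cachexia. In whole liver nuclei pre-cachexia animals, at 9.29 to 19.96 CPM, overlapped PBS animals, at 2.03 to 17.1 CPM. The change from PBS to pre-cachexia was 0.80 there (adjusted p 0.26).

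**Figure D3:**
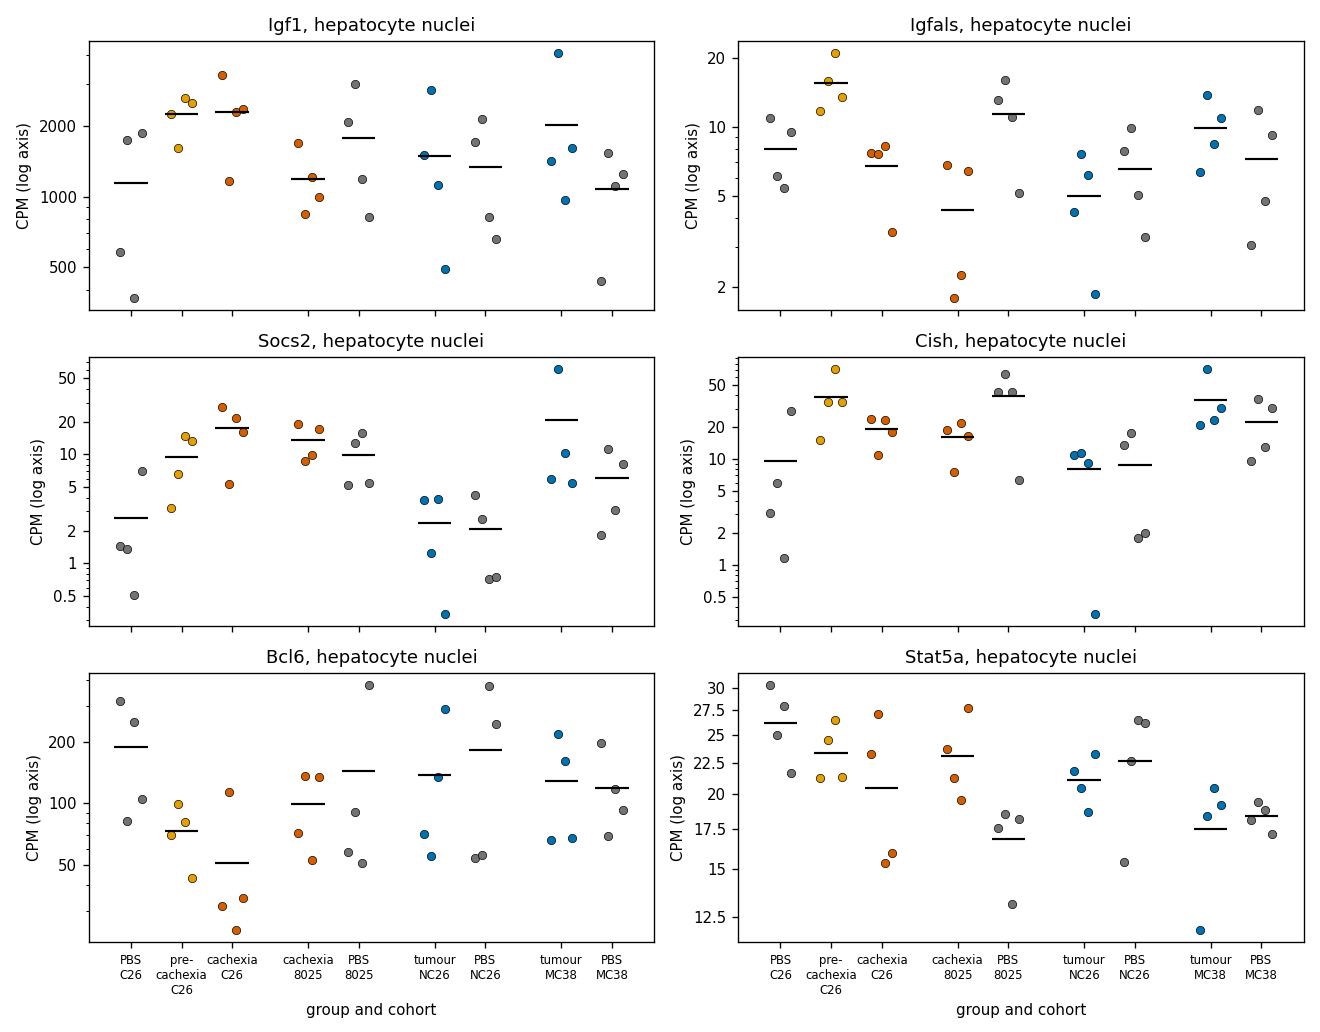
Levels (CPM, log axis) of Igf1, Igfals, Socs2, Cish, Bcl6 and Stat5a in hepatocyte nuclei of each of the 36 animals, by cohort and group. Socs2 lies higher in C26 cachexia animals (5.38 to 27.3 CPM) than in 3 of 4 C26 PBS animals, and 3 of 4 C26 cachexia animals lie below every C26 PBS animal for Bcl6, while Cish spans 1.16 to 28.5 CPM within C26 PBS animals alone.

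Of the feedback genes, Socs2 rose in C26 cachexia and Cish was not called. Socs2, on chromosome 10 (95411490 to 95416857, minus strand), had 27.3, 5.38, 21.5 and 15.9 CPM in hepatocyte nuclei of cachexia animals, against 1.44, 1.37, 0.514 and 7.02 CPM in C26 PBS animals. Of the cachexia animals, 3 lay above every PBS animal, and animal 2 lay below PBS animal 4. The level was 6.72-fold higher (log2 2.75, SE 0.82, adjusted p 0.015). Leaving out PBS animal 3 gave 2.41 (adjusted p 0.053), and leaving out PBS animal 4 gave 3.97 (adjusted p 0.0032). In whole liver nuclei Socs2 had 22.6, 4.02, 17.3 and 18 CPM in C26 cachexia animals, against 2.78, 1.97, 1.27 and 8.51 CPM in C26 PBS animals (log2 2.10, SE 0.69, adjusted p 0.026). There the call held in 2 of 8 omissions of an animal, those of cachexia animal 2 (2.43) and PBS animal 4 (2.93), and was lost in the other 6, with 1.82 to 2.02 and adjusted p 0.051 to 0.084. In 8025 hepatocyte nuclei Socs2 averaged 13.6 ± 5.18 CPM in cachexia and 9.82 ± 5.27 CPM in PBS animals (log2 0.50, SE 0.76, adjusted p 0.66).

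Cish, on chromosome 9 (107296689 to 107301961, plus strand), had 24.2, 10.8, 23.2 and 17.9 CPM in hepatocyte nuclei of C26 cachexia animals, against 3.12, 5.89, 1.16 and 28.5 CPM in C26 PBS animals. The cachexia animals lay above 3 PBS animals and below PBS animal 4. The change was 0.97 (SE 0.79, adjusted p 0.40). That 1 PBS animal decided the value: without it the change was 2.47 (adjusted p 0.039), and in whole liver nuclei 2.43 (adjusted p 0.029) in place of 0.84 (adjusted p 0.46). In the 8025 cohort Cish had 19.0, 7.58, 21.8 and 16.6 CPM in cachexia animals, against 43.2, 63.6, 43.4 and 6.3 CPM in PBS animals, again with 1 PBS animal at the other end of the range (log2 -1.27, SE 0.78, adjusted p 0.23).

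Bcl6, the repressor, fell in C26 cachexia. On chromosome 16 (23965052 to 23988612, minus strand), it had 31.7, 114, 24.2 and 34.4 CPM in hepatocyte nuclei of cachexia animals, against 317, 82.0, 249.6 and 105 CPM in C26 PBS animals. Of the cachexia animals, 3 lay below every PBS animal, and animal 2 overlapped them. The level was 3.69-fold lower (log2 -1.88, SE 0.68, adjusted p 0.044), and in whole liver nuclei the change was -1.75 (SE 0.62, adjusted p 0.041). The adjusted p lay close to the threshold. In hepatocyte nuclei it rose above it without C26 cachexia animals 1 (0.11), 3 (0.12) or 4 (0.095) or C26 PBS animals 1 (0.12) or 3 (0.096), and with no filter on low counts (0.051), and the same 5 omissions ended the call in whole liver nuclei (0.089 to 0.13). Without C26 cachexia animal 2 the change was -2.65 (adjusted p 0.012). In 8025 hepatocyte nuclei Bcl6 had 72, 136, 53.1 and 135 CPM in cachexia animals, against 57.7, 90.5, 51.3 and 379.9 CPM in PBS animals (log2 -0.55, SE 0.66, adjusted p 0.57). The sign rested on PBS animal 4: without it the value was 0.57 in hepatocyte and 0.61 in whole liver nuclei (adjusted p 0.55 and 0.45).

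At pre-cachexia, none of the 8 genes was called by edgeR against PBS (3 at an unadjusted p under 0.05 in hepatocyte and 2 in whole liver nuclei; DESeq2 called 0), beside 7.72% and 12.8% of all genes. The largest log2 values in hepatocyte nuclei were those of Cish, Socs2 and Bcl6. Cish had 15.2, 34.3, 71.3 and 34.9 CPM in pre-cachexia animals, against the PBS values above (log2 2.0, SE 0.80, adjusted p 0.12), and without PBS animal 4 gave 3.5 (adjusted p 0.020). Socs2 had 3.25, 6.59, 14.6 and 13.3 CPM (log2 1.85, SE 0.80, adjusted p 0.15), and without PBS animal 4 gave 3.08 (adjusted p 0.047). Bcl6 had 69.9, 98.9, 81.4 and 43.5 CPM (log2 -1.36, SE 0.67, adjusted p 0.21). Both C26 comparisons use the same 4 PBS animals, so these values and those of cachexia are not independent. The pre-cachexia effect minus the NC26 effect called none of the 8 genes by edgeR (1 at an unadjusted p under 0.05 in hepatocyte and 0 in whole liver nuclei; DESeq2 called 0), beside 0% of all genes in each.

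In weight-stable tumours no member of the pathway was called. For NC26, edgeR called 0 of the 8 genes beside 0.324% of all genes in hepatocyte and 0.728% in whole liver nuclei (0 at an unadjusted p under 0.05 in each; DESeq2 called 0). For MC38, edgeR called 0 of the 8 beside 0% of all genes in each (1 at an unadjusted p under 0.05 in each; DESeq2 called 0). The 1 gene was Socs2, with 5.91, 61.2, 10.3 and 5.5 CPM in hepatocyte nuclei of MC38 tumour animals, against 1.83, 11.2, 3.06 and 8.23 CPM in MC38 PBS animals (log2 1.77, SE 0.77, adjusted p 1). Tumour animal 2 lay far above the rest. In that animal Igf1 (4073 CPM), Cish (70.4 CPM), Igfals (13.8 CPM) and Bcl6 (218 CPM) were also the highest of its group. The other genes overlapped between the groups in both cohorts, with Igf1 at 1419, 4073, 964 and 1615 CPM in MC38 tumour animals, against 439.9, 1530, 1112 and 1244 CPM in MC38 PBS animals. In the NC26 cohort Igf1 had 1507, 2826, 1117 and 492 CPM in tumour animals, against 1712, 2126, 822 and 659 CPM in PBS animals.

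Hepatocyte nuclei and whole liver nuclei gave close levels. In PBS animals Stat5a (log2 0.37, SE 0.10, adjusted p 0.0011) and Stat5b (log2 0.22, SE 0.08, adjusted p 0.017) were higher in hepatocyte nuclei, 2 of 8 genes beside 50.9% of all genes. With the animal as a block, which uses that both libraries come from the same liver, 7 of 8 genes were called, beside 69.6%. The log2 differences were then small: 0.41 for Bcl6 (adjusted p 6e-14), 0.31 for Cish (0.002), 0.17 for Ghr (0.011), 0.15 for Igf1 (0.005) and -0.26 for Socs2 (0.02). No effect of a tumour on any of the 8 genes was called as different between the fractions (edgeR, 0 called and 0 at an unadjusted p under 0.05 in each of 5 comparisons; background 0% to 0.0427%; DESeq2 called 0 of the 8 in each). That edgeR fit took both libraries of an animal as independent. With the animal as a block, 0 of the 8 genes were called in each of these comparisons. Over all genes, the block called 62 for C26 cachexia, 29 for pre-cachexia, 190 for 8025, 1 for NC26 and 0 for MC38. Between animals of a group, the level in hepatocyte nuclei followed that in whole liver nuclei. Pearson correlations of group-centred log2 CPM over 36 animals were 0.996 for Bcl6, 0.968 for Igf1, 0.962 for Cish, 0.956 for Stat5b, 0.954 for Socs2, 0.780 for Stat5a, 0.732 for Ghr and 0.533 for Igfals. All 8 passed a permutation test within groups. Livers high or low in Bcl6, Cish and Socs2 within their group were thus much the same in both kinds of nuclei.

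**Figure D4:**
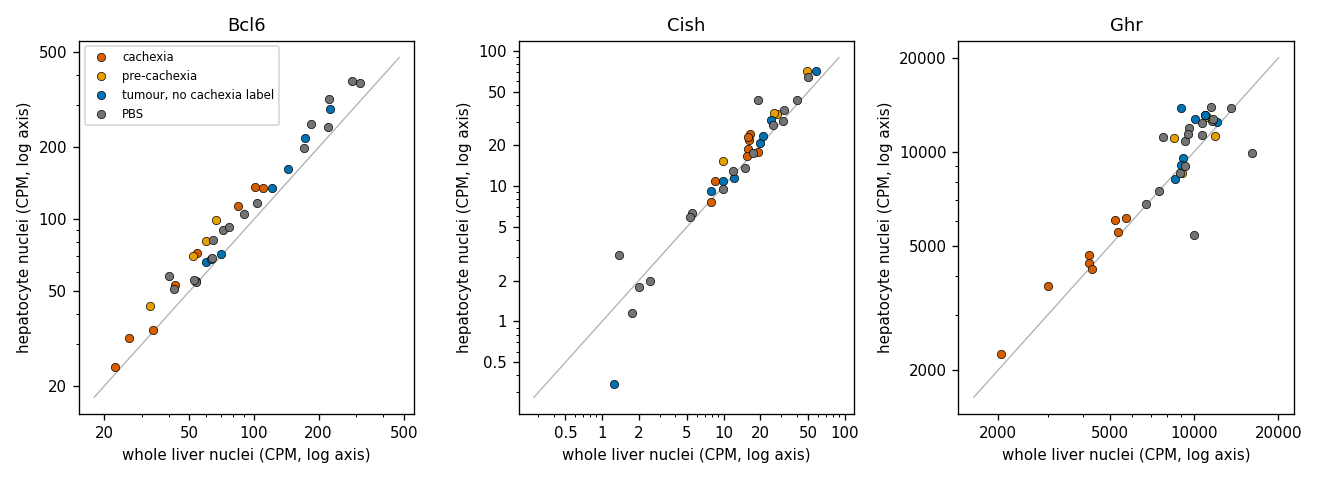
Level in hepatocyte nuclei against level in whole liver nuclei (CPM, log axes) of Bcl6, Cish and Ghr; each point is 1 of 36 animals and the line marks equality. The points follow the line, closely for Bcl6 and with more scatter for Ghr (group-centred r 0.996 and 0.732).

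Within groups, livers high in 1 STAT5 target were high in the others. Of 28 pairs of the 8 genes in hepatocyte nuclei, 11 passed a permutation test within groups after adjustment over the 28, by Pearson (36 animals, 100000 resamples, two-sided, smallest possible p 1e-05). Of these, 9 were positive and 2 negative, and 11 pairs also passed by Spearman. The closest pair was Igf1 and Cish (r 0.834, rho 0.837, adjusted p 0.00014), followed by Socs2 and Cish (r 0.791, rho 0.818, adjusted p 0.00014) and Igfals and Cish (r 0.729, rho 0.720, adjusted p 0.00028). Igf1 with Socs2 gave r 0.675 (rho 0.654), Igf1 with Igfals 0.624 (rho 0.630) and Igfals with Socs2 0.609 (rho 0.613), each at adjusted p 0.00145. The 4 target genes Igf1, Igfals, Socs2 and Cish were thus linked in all 6 of their pairs. Bcl6 ran the other way, with Cish (r -0.697, rho -0.625, adjusted p 0.00178) and with Igf1 (r -0.669, rho -0.635, adjusted p 0.00148). It ran with Stat5a (r 0.605, rho 0.621, adjusted p 0.00296) and Stat5b (r 0.492, rho 0.532, adjusted p 0.0399), and Stat5a with Stat5b gave r 0.609 (rho 0.565, adjusted p 0.00406).

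Ghr itself followed none of the 7 other genes (r -0.14 to 0.194, adjusted p 0.441 to 0.79). The pairs named kept their sign without the 2 animals farthest from the median of 1 gene of the pair. That gene was the one that comes first in the list of the 8, and extremes of the other gene stayed in. Igf1 with Cish then gave 0.792, Cish with Bcl6 -0.606 and Igf1 with Bcl6 -0.635. The pairs named also kept their sign within each set of cohorts with neighbouring library numbers. There Igf1 with Cish gave 0.792 in the C26 and 8025 cohorts and 0.872 in the NC26 and MC38 cohorts, Igf1 with Bcl6 -0.718 and -0.625, and Igf1 with Igfals 0.36 and 0.865 in the same order. Without C26 PBS animal 1, Stat5b with Bcl6 missed the threshold (r 0.463, adjusted p 0.066) and the other 10 pairs passed. In whole liver nuclei of the same animals the values were 0.719 for Igf1 with Cish, -0.672 for Cish with Bcl6 and 0.383 for Igf1 with Igfals.

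**Figure D5:**
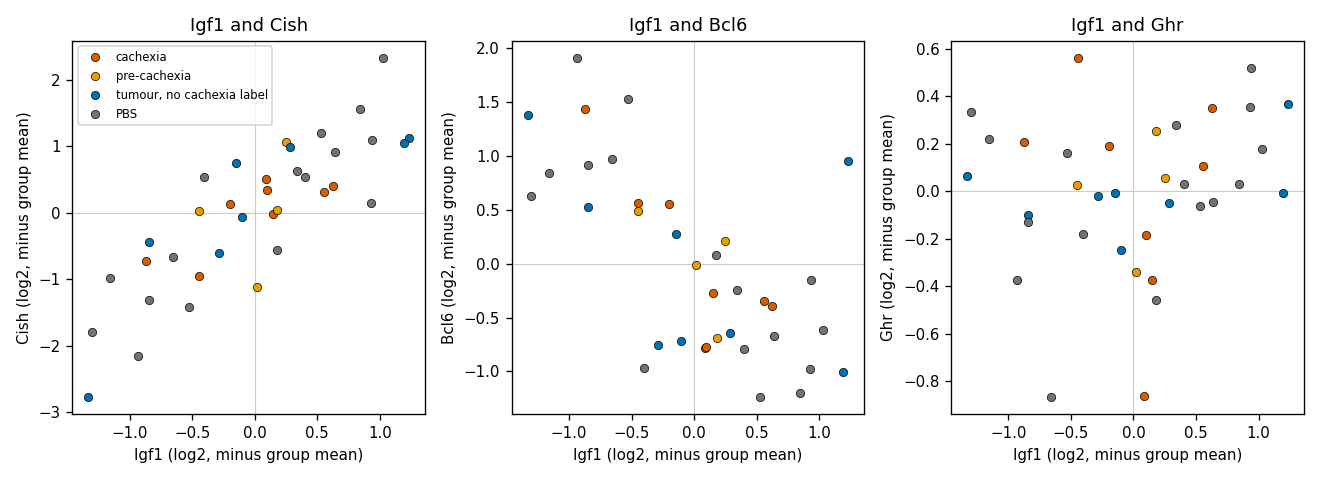
Log2 level minus the group mean in hepatocyte nuclei, Igf1 (horizontal axis) against Cish, Bcl6 and Ghr; each point is 1 of 36 animals. Cish rises with Igf1 (r 0.834), Bcl6 runs against it (r -0.669), and Ghr shows no trend.

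The genes whose pattern over the 36 hepatocyte libraries was most like that of each of the 8 were found by the Pearson correlation of log2 CPM after subtracting the mean of the PBS animals of the same cohort, over 8869 genes. These correlations hold tumour effects and spread between animals together and share library depth, and they are given as a description. Ghr was most like Ces3a (0.914), Ttc39c (0.910) and Hsd3b3 (0.900). Igf1 was most like Cish (0.887), Onecut1 (0.876) and Wdr45b (0.874), and Cish like Onecut1 (0.935), Igf1 and Ces3b (0.847). Onecut1 encodes HNF6, a liver transcription factor known to respond to growth hormone. Socs2 was most like Cyp2c68 (0.857), Adck5 (0.836) and Cyp2c70 (0.823). Igfals was most like Ifi35 (0.812), Gcsh (0.809) and Hemk1 (0.789). Bcl6 was most like Fam46a (0.779), Pde9a (0.744) and Rassf5 (0.735). Stat5b was most like Cmbl (0.804) and Bphl (0.789), and Stat5a like Ggcx (0.734), Wwc1 (0.717) and Lasp1 (0.712).

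Other genes of growth hormone receptor signalling moved in both directions in hepatocyte nuclei. Of 34 tested, 7 rose and 1 fell in C26 cachexia (median log2 change 0.09; 3 rose in a fit of that cohort alone), and 7 rose and 7 fell in 8025 cachexia (median -0.04). Over all genes 12.2% rose and 10% fell in C26 cachexia, and 16.2% rose and 13.1% fell in 8025 cachexia. Stat3, the transducer of the interleukin-6 family, averaged 432.6 ± 103 CPM in C26 cachexia and 140.7 ± 13.4 CPM in C26 PBS animals (log2 1.62, adjusted p 3e-07), and 460.4 ± 65.8 and 156.3 ± 27.0 CPM in 8025 cachexia and 8025 PBS animals (log2 1.56, adjusted p 3e-07). Socs3, its feedback inhibitor, averaged 21.3 ± 9.08 CPM in C26 cachexia and 3.28 ± 1.68 CPM in C26 PBS animals (log2 2.69, adjusted p 9.3e-05), and 46.7 ± 18.4 CPM in 8025 cachexia and 4.42 ± 1.27 CPM in 8025 PBS animals (log2 3.41, adjusted p 3.5e-06). Prlr, the prolactin receptor, which also uses STAT5, averaged 1528 ± 513 CPM in C26 cachexia and 183.5 ± 109 CPM in C26 PBS animals (log2 3.06, adjusted p 0.00031). Sirpa, a membrane protein that recruits phosphatases and is abundant on macrophages, rose in 8025 cachexia (log2 1.98, adjusted p 4.7e-06), beside the macrophage markers given above, whose part in that result was not tested.

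Among the IGF ligands, receptors and binding proteins, 1 of 10 tested rose and 0 fell in C26 cachexia (median 0.29), and 4 rose and 2 fell in 8025 cachexia (median 0.11; 0 fell with RLE scaling), beside the shares of all genes just given. Without 8025 cachexia animal 3, 2 rose in 8025 cachexia, and the number that fell was 0 in 5 of the 8 omissions. Igfbp1, a binding protein known to respond to fasting, averaged 118.5 ± 102 CPM in C26 cachexia and 4.10 CPM in C26 PBS animals, and 130.1 ± 31.9 CPM in 8025 cachexia and 7.35 CPM in 8025 PBS animals (adjusted p 3.6e-05 and 0.0001). Igf1r, the IGF1 receptor, rose in 8025 cachexia to 28.5 ± 6.99 CPM, against 17.2 ± 3.06 CPM in 8025 PBS animals (log2 0.72, adjusted p 0.011). Pappa, a protease that cuts IGF binding proteins, rose at a low level, 1.17 CPM in 8025 cachexia and 0.457 CPM in 8025 PBS animals (log2 1.42, adjusted p 0.0085). Of 9 liver transcription factors that act beside STAT5, 3 rose and 1 fell in C26 cachexia (median 0.56), and 1 rose and 2 fell in 8025 cachexia (median -0.05), beside 16.2% and 13.1% of all genes. The number that rose in 8025 cachexia was 0 in 6 of the 8 omissions of an animal and 2 without PBS animal 4, and the number that fell was 1 in 7 of them. Cux2, a repressor known for its female bias in mouse liver, averaged 559 ± 241 CPM in C26 cachexia and 10.9 ± 5.51 CPM in C26 PBS animals (log2 5.68, adjusted p 0.00099). Tox, also female-biased in mice, rose in C26 cachexia (log2 1.3, adjusted p 0.0077), and Trim24 rose in both models (log2 1.07 in C26 and 0.87 in 8025, adjusted p 0.013 and 0.034). In 8025 cachexia Foxa1 fell (log2 -1.31, adjusted p 0.00055), and Onecut1 averaged 120.7 ± 16.1 CPM in cachexia and 676 ± 564 CPM in PBS animals, with overlap (log2 -2.49, adjusted p 0.045).

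Lists of genes known in mice to depend on the pulse pattern of growth hormone were also followed. In both cachexia models most called male-biased genes of these lists fell and most called female-biased genes rose. The lists were chosen with earlier results of these data known, so their counts describe the genes listed and are not a test. Of 19 male-biased, growth hormone-dependent genes tested, 1 rose and 11 fell in C26 cachexia (median log2 change -1.64), and 0 rose and 12 fell in 8025 cachexia (median -2.88). Of 18 female-biased, growth hormone-repressed genes tested, 9 rose and 1 fell in each cachexia model (median 3.0 in C26 and 1.77 in 8025). Without C26 PBS animal 1, 0 of the male-biased genes rose and 12 fell in C26 cachexia, and 9 of the female-biased genes rose and 1 fell. At pre-cachexia 1 male-biased gene rose, 3 fell and no female-biased gene was called by edgeR, beside 7.72% of all genes in either direction. There 3 female-biased genes rose by DESeq2 and without pre-cachexia animal 3, and 1 male-biased gene fell without pre-cachexia animal 1 or PBS animal 3. Without C26 PBS animal 1, 0 male-biased genes rose and 2 fell at pre-cachexia. In NC26 and MC38 none of either list was called. These counts stand beside 12.2% higher and 10% lower of all genes in C26 cachexia and 16.2% and 13.1% in 8025 cachexia. Several of the genes belong to families of near copies (Mup, Cyp and Slc22a genes), whose reads the counting could have split.

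Slco1a1, a male-biased organic anion transporter, averaged 33.4 ± 25.6 CPM in C26 cachexia and 966.8 ± 185 CPM in C26 PBS animals (log2 -4.86, adjusted p 2.6e-07). Mup3, a major urinary protein gene, averaged 23.0 ± 5.84 CPM in C26 cachexia and 403.7 ± 130 CPM in C26 PBS animals (log2 -4.14, adjusted p 5.4e-08), and its change in 8025 cachexia was -4.09 (adjusted p 3.2e-08). Mup21 also fell in C26 cachexia (log2 -6.16, adjusted p 6.1e-08). Hsd3b5, a male-biased steroid dehydrogenase, averaged 0.973 ± 0.810 CPM in 8025 cachexia and 379.7 ± 247 CPM in 8025 PBS animals (log2 -8.67, adjusted p 7e-08). Cyp4a12a, a fatty acid hydroxylase of male liver, averaged 0.739 ± 0.680 CPM in 8025 cachexia and 81.9 ± 39.6 CPM in 8025 PBS animals (log2 -6.73, adjusted p 2.5e-08). Of the female-biased genes, Sult1e1, the oestrogen sulphotransferase, averaged 49.4 ± 55 CPM in C26 cachexia and 0.881 CPM in C26 PBS animals, and 6.84 ± 6.58 CPM in 8025 cachexia and 0.0625 CPM in 8025 PBS animals (adjusted p 2.7e-05 and 0.00017). Fmo2, a flavin monooxygenase gene, rose in C26 cachexia (log2 3.20, adjusted p 0.00013). Slc22a26 (log2 5.48, adjusted p 2.4e-05) and Prom1 (log2 1.5, adjusted p 0.00031) rose in 8025 cachexia. Prom1 also marks cells of the bile ducts, and the 7 cholangiocyte markers summed to 179.8 to 551.7 CPM in 8025 cachexia and 200.9 to 270.1 CPM in 8025 PBS animals; their part in that result was not tested.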

How the data were processed

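The deposited table holds raw read counts of each gene with its introns included, per the file headers, for 20105 genes in 72 libraries. The submitters' processing notes name STAR 2.4.2a, the build mm10 and, without a role, DESeq2 1.24.0. Libraries were stranded and made without selection of poly-adenylated RNA, per the labels' protocols. Supernatant nuclei were not analysed here.

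Counts were analysed in R 4.3.3 with edgeR 4.0.16 (quasi-likelihood F test, TMM scaling, filterByExpr by group) in a fit of 36 libraries and 9 groups for each fraction, and of 72 libraries and 18 groups between fractions. Genes tested numbered 13274, 13738 and 14054, and TMM factors were 0.900 to 1.12 in hepatocyte and 0.905 to 1.14 in whole liver nuclei. The threshold was 0.05, on p adjusted by Benjamini-Hochberg over all genes tested. Every adjusted p of a single gene is from edgeR unless DESeq2 (1.42.0) is named, and every log2 fold change is from the same fit, and its SE was taken as the fold change over the root of its F. CPM use TMM-scaled library sizes, and RPKM are CPM per kilobase of counted length. Groups are of 4 animals, given by the labels as separate animals. Correlations used log2(CPM + 0.5) minus the group mean. Both libraries of an animal pair by the animal number in the labels: the correlation of their deviations had a median of 0.539 (-0.191 to 0.822), and 34 of 36 libraries correlated best with that of their own animal, except C26 PBS animals 1 and 4. The code was tested on simulated data.

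The 8 genes and the lists were chosen with earlier results of these data known. All 8 are named in each main comparison, with the 3 called genes of smallest p from each list in C26 and 8025 cachexia in hepatocyte nuclei, and the 3 most alike genes above a mean of 5 CPM, except that some genes chosen by these rules are not reported here.

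Alternatives were RLE scaling, no filter on low counts, a replicate block, library sizes without 5 rRNA-like genes (Cmss1, Lars2, Cdk8, Camk1d and Gphn), a fit of each cohort alone, DESeq2 and the omission of each animal. Depth limits the low genes: Socs2 and Cish had as few as 7 reads in a library.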

Additional observations from a re-analysis of the deposited data

Results flagged for a closer look

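The effect of 8025 cachexia on Ghr differed from that of MC38 tumours by -1.24 on the log2 scale in hepatocyte and -1.66 in whole liver nuclei (edgeR adjusted p 0.032 and 0.0014, contrast tested within the fit). Of all genes, 7.21% and 13.5% were called there. The hepatocyte call held in 11 of 16 omissions of an animal and the whole liver call in 16 of 16. Cohort and tumour line cannot be told apart in this difference.

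Dixon's test was run on the CPM of each of the 8 genes in each of the 18 groups of 4 libraries, which made 144 sets. In 12 of these sets 1 animal lay apart. Chance gives 5% of sets, or 7.2, for independent sets of normally distributed values. The sets share animals across genes and fractions and CPM were not put on a log scale, so 12 and 7.2 cannot be compared directly. Bcl6 of 8025 PBS animal 4 was 379.9 CPM in hepatocyte and 285.9 CPM in whole liver nuclei (the other 3 animals 51.3 to 90.5 CPM in hepatocyte nuclei). Bcl6 of C26 cachexia animal 2 was 114.0 CPM in hepatocyte nuclei (others 24.2 to 34.4 CPM). Socs2 of MC38 tumour animal 2 was 61.2 CPM in hepatocyte and 60.4 CPM in whole liver nuclei (others 5.5 to 10.3 and 4.83 to 8.53 CPM), and in whole liver nuclei Cish of that animal was 57.6 CPM and Ghr 12100 CPM (others 19.9 to 24.6 and 8585 to 9164 CPM). In C26 PBS animal 4, Socs2 was 7.02 CPM in hepatocyte nuclei (others 0.514 to 1.44 CPM) and Cish 25.6 CPM in whole liver nuclei (others 1.37 to 5.33 CPM). The lowest animals to stand apart were 8025 cachexia animal 2 for Cish in whole liver nuclei (7.87 CPM; others 15.7 to 16.1 CPM), C26 cachexia animal 4 for Igfals in hepatocyte nuclei (3.48 CPM; others 7.58 to 8.28 CPM) and C26 pre-cachexia animal 3 for Stat5b in whole liver nuclei (124.8 CPM; others 153.5 to 158.1 CPM).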

How the results depend on the processing

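Of 5626 values recomputed under other settings, 0 reversed a called direction. Counts could not be scored as reversed, and single values only if called in the main analysis or in the alternative. Uncalled directions did turn, as for Bcl6 in 8025 cachexia in hepatocyte nuclei (-0.55, and 0.57 without PBS animal 4). Counts of the 8 genes called that moved by over 1.5 times were as follows. With DESeq2, 2 were called for 8025 minus MC38 in hepatocyte nuclei (1 in the main analysis), 2 for 8025 cachexia in whole liver nuclei (1; Igfals, adjusted p 0.036), 1 for C26 minus 8025 in hepatocyte nuclei (0) and 1 for C26 minus NC26 in each fraction (0). With each cohort fitted alone, 2 were called for C26 cachexia against pre-cachexia in hepatocyte nuclei (1; Igfals -1.22, adjusted p 0.024), 1 for 8025 cachexia in hepatocyte nuclei (2) and 1 for pre-cachexia in whole liver nuclei (0; Bcl6 -1.46, adjusted p 0.049). With the animal as a block, 7 were called between fractions (2).

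Replicate numbers within a fraction do not pair animals of different groups: correlations at the same number had a median of 0.0299 in hepatocyte and 0.00307 in whole liver nuclei, and 5 and 4 of 20 pairs correlated best with their own number. With the number as a block, 2 genes were called for 8025 minus MC38 in hepatocyte nuclei (1; Igfals, adjusted p 0.044) and 1 for pre-cachexia in whole liver nuclei (0; Cish 2.22, adjusted p 0.049); the other member counts stayed within 1.5 times.

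Leaving out each animal in turn gave 1 to 4 genes called for C26 cachexia in each fraction (3), 0 to 2 for pre-cachexia in each (0), 1 to 2 for 8025 cachexia in each (2 and 1), 0 to 1 for C26 minus 8025 in whole liver and for C26 minus NC26 in hepatocyte nuclei (0), 0 to 2 for 8025 minus MC38 in hepatocyte nuclei (1), 3 to 3 and 0 to 4 between strains in hepatocyte and whole liver nuclei (3), and 10 of the correlated pairs without C26 PBS animal 1 (11). The cause was not tested. Over all genes, DESeq2 called 143 and 199 for NC26 (43 and 100 by edgeR), 6 and 14 for MC38 (0 and 0), 355 for C26 minus 8025 in hepatocyte nuclei (127) and 506 for C26 minus NC26 in hepatocyte nuclei (251), and pre-cachexia fitted alone called 401 in hepatocyte nuclei (1025).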

Other observations

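The ratio of Socs2 to Cish and that of Igf1 to Ghr were computed after the values had been seen, and are given without a test. In hepatocyte nuclei the ratio of Socs2 to Cish CPM ran from 0.497 to 1.13 (median 0.909) in C26 cachexia animals and 0.232 to 0.463 (median 0.345) in C26 PBS animals. It ran from 0.452 to 1.14 (median 1.02) in 8025 cachexia animals and 0.122 to 0.875 (median 0.282) in 8025 PBS animals. In whole liver nuclei the C26 ranges overlapped, 0.473 to 1.36 in cachexia and 0.333 to 2.03 in PBS animals. The ratio of Igf1 to Ghr CPM was 0.21 to 0.637 in hepatocyte nuclei of C26 cachexia animals and 0.0299 to 0.168 in C26 PBS animals, with no overlap. In 8025 it was 0.139 to 0.538 in cachexia and 0.11 to 0.217 in PBS animals, with overlap.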
